A study of Caenorhabditis elegans with 10 samples.

Results

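The 100 probe sets described here were those whose mutant minus wild-type difference stayed farthest from 0, with the same sign, in all 5 array pairs of a Caenorhabditis elegans study. They were taken from 22547 probe sets, after 77 control probe sets and the nep-1 probe set had been left out. The 50 probe sets with the lowest maximum of the 5 differences are called the mutant-low members, and the 50 with the highest minimum the mutant-high members. The members were chosen by these measured differences, so every mutant minus wild-type value below is a description and carries no test of its own.

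The nep-1 product is a neprilysin, a membrane-bound zinc peptidase that cleaves small peptides outside the cell. In nematodes and mammals such enzymes end the signal of neuropeptides, and loss of one can alter the behaviour, feeding and metabolism of tissues that receive those peptides. A change in whole worms at both the L3 stage, in which larvae grow and the gonad develops, and the adult stage, in which germ line and embryos make up much of the RNA, would have to appear against large differences between the stages themselves.

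Adult worms carrying a nep-1 allele from EMS mutagenesis gave 3 arrays and adult wild-type worms 3, and L3 larvae of the mutant gave 2 arrays and wild-type larvae 2. All were grown at 20 °C on OP50 bacteria, and RNA came from whole bodies. Letters and naming styles in the array descriptions tie each mutant array to a wild-type partner. The adult pairs are pair 3 (mutant 2 with wild-type 1), pair 4 (mutant 3 with wild-type 2) and pair 5 (mutant 1 with wild-type 3), and the larval pairs are pair 1 (mutant 1 with wild-type 1) and pair 2 (mutant 2 with wild-type 2). The wild-type was N2, variety Bristol. The mutant is a single allele, and the descriptions do not spell it alike: larval mutant 1 is described as BR2845L3, adult mutants 2 and 3 carry 2815A and 2815B, and adult mutant 1 and larval mutant 2 carry no number. Whether these names mark different strains cannot be told from the labels. In whole worms, fewer cells of a type and less RNA per cell cannot be told apart.

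Expression is given on the log2 scale as deposited, so a difference of 1 is a doubling. Present calls, the scanner software's verdict that a probe set lay above its mismatch background, covered 11184 to 13939 probe sets an array. The spread of the pair differences over all probe sets was widest in pair 5, with an SD of 0.681, followed by pair 2 at 0.485 and pair 3 at 0.417, and narrowest in pairs 4 and 1 at 0.291 and 0.263. On control transcripts, the log2 signal of the 3′ probe sets minus that of the 5′ probe sets reflects how complete the labelled RNA was. This gap was larger in the mutant than in wild-type by 0.594 in pair 5, 0.425 in pair 2, 0.106 in pair 1 and 0.052 in pair 3, and smaller in the mutant in pair 4, at −0.148. Its part in the members' values was not tested.

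In all, 1017 of the 22547 probe sets (4.51%) were lower in the mutant in all 5 pairs, and 349 (1.55%) were higher. The 50 mutant-low members are the extreme end of the first count and the 50 mutant-high members that of the second. The split depended on the scaling. It was 1315 lower and 283 higher after each array was centred on its median, 764 and 537 after quantile normalisation, and 555 (2.46%) and 901 (4%) in the authors' scaled signals. The excess of lower over higher probe sets therefore turned round in the scaled signals.

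The rule asked how many probe sets of each sign would be found if the signs of the pairs were flipped. With 5 pairs there are 32 sign assignments, so the smallest share any count can reach is 0.03125, and every assignment has a mirror image in which lower and higher change places. Over the 32, the number of probe sets lower in all pairs ran from 303 to 1167 with a median of 702. Since every probe set is lower in all pairs under 1 of the 32 assignments, unless a difference is 0, the average count is fixed by arithmetic and only the spread describes the data. The labelled assignment, with 1017, was reached or exceeded by 5 of the 32. For the 349 higher probe sets, 31 of the 32 assignments gave as many or more.

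The limits that define the members were also met often under flipped signs. A maximum at or below −0.168, the value of the last mutant-low member, was met by 50 probe sets as labelled and by 8 to 190 over the 32 assignments, with a median of 41, and 13 of the 32 gave 50 or more. A minimum at or above 0.0984, the value of the last mutant-high member, was met by 50 to 383 probe sets, with a median of 128.5, and all 32 assignments gave 50 or more. The labelled assignment thus gave the fewest probe sets past the mutant-high limit. Running the sign assignments on arrays centred on their medians was added after seeing the data. There the 1315 lower probe sets were the highest count of the 32 assignments, and the corresponding limits were met as often in 9 of 32 on the low side and 32 of 32 on the high side. Fitted over all probe sets with the pair as a block, limma called 0 of 22548 between the genotypes (0%), with 697 at an unadjusted p under 0.05 and a smallest adjusted p = 0.914.

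**Figure D1:**
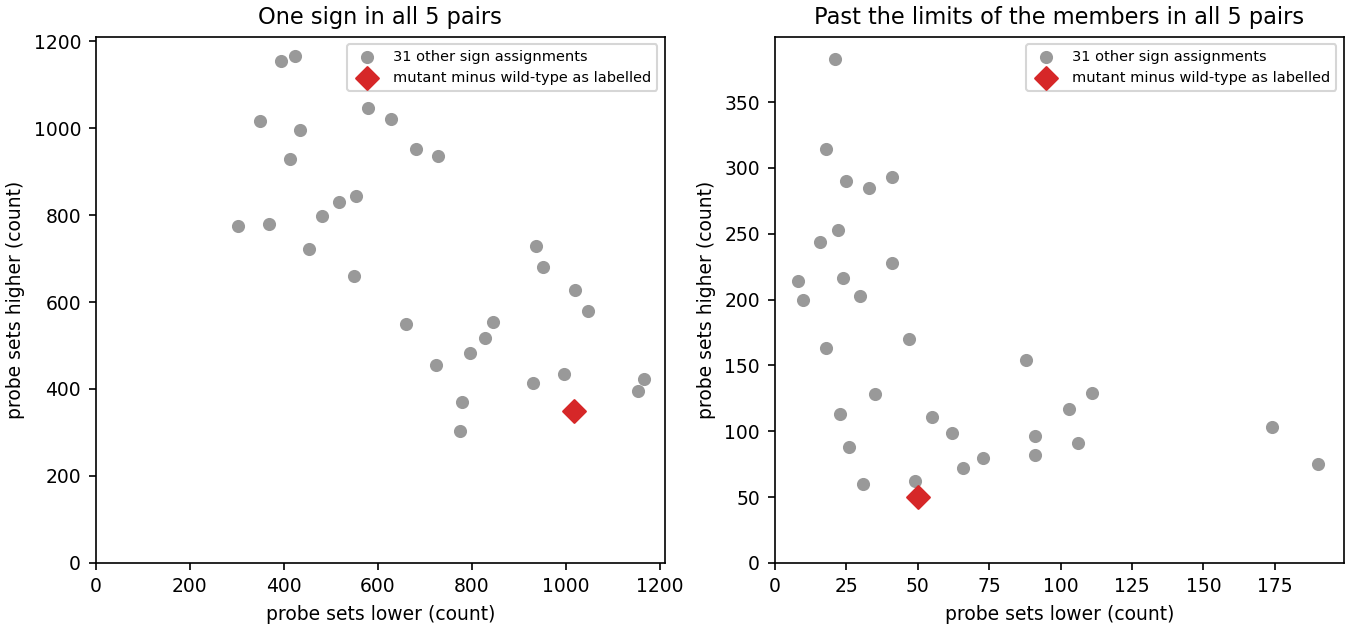
Number of probe sets higher (vertical axis) against lower (horizontal axis) in all 5 pairs for each of the 32 sign assignments of the pairs, for the sign alone (left) and past the members' limits (right). The red diamond is the labelled assignment, at 1017 lower and 349 higher on the left and 50 and 50 on the right, where no grey point lies below it.

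The members' differences were small. The median of the 5 differences of a mutant-low member ran from −2.30 to −0.20, with a median over members of −0.40, and that of a mutant-high member from 0.13 to 0.75, with a median of 0.26. No member reached a 2-fold difference in all 5 pairs (0 of 50 in each direction), and a median difference of at least 1 in size was seen for 2 mutant-low members and 0 mutant-high members. Medians of at least 0.5 in size were seen for 10 and 3. Of all 22547 probe sets, 30 had a median of at least 1 in size and 435 had one of at least 0.5. The rule ranked by the difference nearest to 0, not by the median.

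The pairs did not contribute alike. In the adult pairs the mutant-low members had median differences of −0.37 in pair 3, −0.30 in pair 4 and −0.57 in pair 5, and in the larval pairs −0.36 in pair 1 and −0.42 in pair 2. The mutant-high members had medians of 0.30, 0.21 and 0.41 in pairs 3 to 5 and 0.18 and 0.41 in pairs 1 and 2. Over all probe sets the medians lay between −0.08 and 0.01. Pair 5 held the largest of the 5 differences for 26 mutant-low and 21 mutant-high members, and pair 2 for 10 and 16, the pairs that also had the widest spread over all probe sets. The difference nearest to 0, which set a member's rank, lay in pairs 4, 3 and 1 for 14, 12 and 11 mutant-low members, and in pairs 1, 4 and 3 for 16, 15 and 11 mutant-high members.

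**Figure D2:**
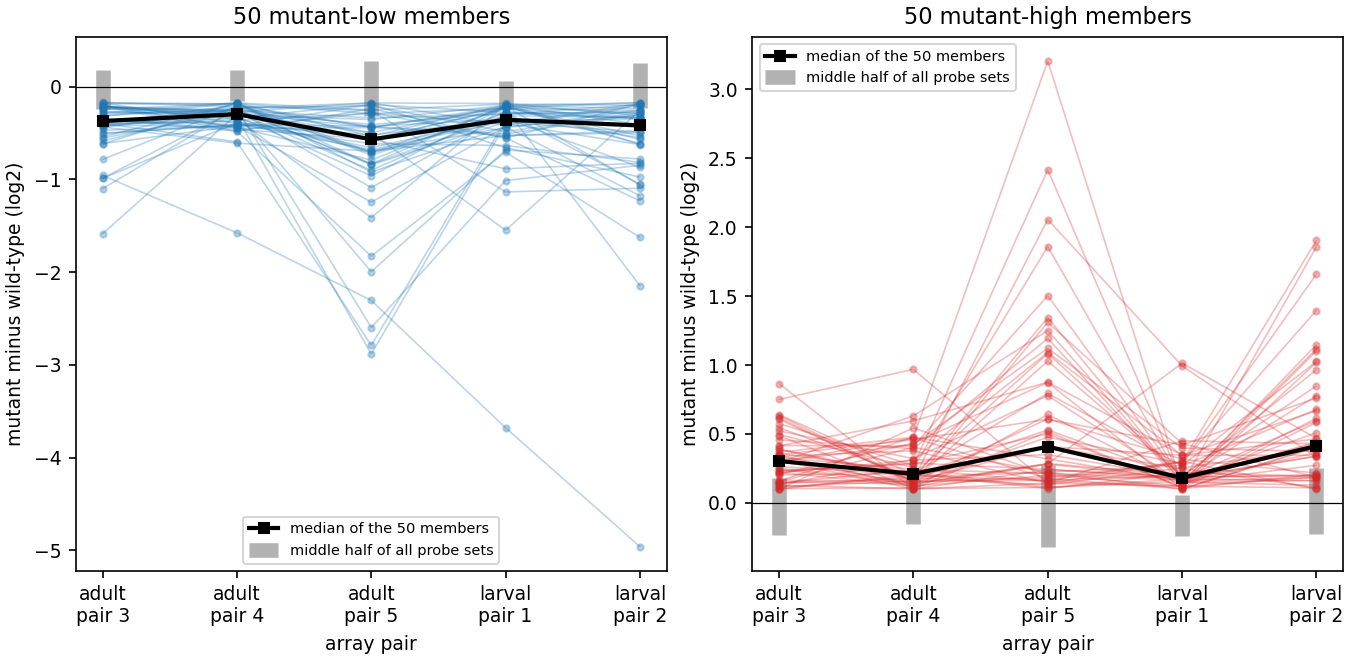
Mutant minus wild-type difference (log2) of each mutant-low member (left) and mutant-high member (right) in the 3 adult and 2 larval pairs. Thin lines are members, black squares their median and grey bars the interquartile range of all probe sets, and the widest fans of lines stand in pairs 5 and 2.

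At the edge of the choice the values ran on without a gap. The last mutant-low members inside the limit were 182816_s_at and 188819_at, with maxima of −0.170 and −0.168, and the first outside were 180580_at and 177497_at, at −0.168 each. The last mutant-high members were 186486_at and 181658_at, with minima of 0.0990 and 0.0984, and the first outside were 176636_s_at and 181700_at, at 0.0984 and 0.0969.

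The mutant and wild-type arrays of a stage overlapped for many members, since the rule compared arrays within pairs. In adults, 12 mutant-low members lay wholly below wild-type (1.95% of all probe sets did) and 11 mutant-high members wholly above (1.52%). In larvae the counts were 24 (12.6%) and 24 (7.62%). Nothing is read from these counts, because the rule used the same contrast. Across all 13 mutant by wild-type comparisons within a stage, 5 mutant-low members were lower throughout, against 41 of all probe sets (0.182%), and 9 mutant-high members were higher throughout, against 30 (0.133%). The 5, named after their values were seen, were 173014_at, 173915_at, 185275_at, 189283_s_at and 179605_s_at. Of the 9 mutant-high ones, 5 (172396_at, 172277_x_at, 177566_at, 187884_at and 174153_at, also named after their values were seen) were called present on none of the 10 arrays.

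The first mutant-low member, 173014_at, had log2 levels of 5.05, 5.81 and 5.74 on adult mutants 2, 3 and 1, against 6.01, 7.38 and 8.05 on their wild-type partners. In larvae it measured 3.95 and 4.01 in the mutant, against 7.62 and 8.97 in wild-type. The groups did not overlap at either stage, and both larval mutant arrays were called absent, so background limits the larval difference. Its 5 differences were −0.96, −1.57 and −2.30 in adult pairs 3 to 5 and −3.68 and −4.96 in larval pairs 1 and 2. nep-1 itself, which was kept out of the choice, had differences of −0.92, −1.43 and −2.27 in the adult pairs and −2.99 and −4.31 in the larval pairs. The authors' deposited table gives 173014_at no gene, and it is left unnamed here. The other mutant-low member with a median difference of at least 1 in size was acox-1.2, at −1.01.

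Names could be given to few members. On the authors' deposited lists of changed transcripts, 152 of the 196 probe sets carry 1 gene number for which a gene name was found. The lists hold 7 mutant-low and 2 mutant-high members, and 8 of these 9 have a gene name. Since the study chose its lists on these same arrays, the direction of the named members is not independent evidence. The other 91 members are given by probe set.

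The named mutant-low members include 2 enzymes that break down fatty acids. acdh-2 (173996_at) encodes an acyl-CoA dehydrogenase, the enzyme class that opens each round of mitochondrial beta-oxidation. It measured 6.81, 7.30 and 4.93 on adult mutants 2, 3 and 1, against 7.20, 7.89 and 7.72 on their adult wild-type partners, and 4.27 and 3.90 on larval mutants, against 4.64 and 4.33 on larval wild-type arrays. The larval groups did not overlap, the adult groups did, and adult mutant 1 stood far below the other adult arrays. In the authors' scaled signals the larval groups did overlap, at 58.2 and 69 in the mutant against 121.1 and 39.1 in wild-type. There the difference in pair 2 turned positive, at 0.63. Its differences averaged −0.92 ± 1.05 (SD, n = 5 pairs), with −2.79 in pair 5 and between −0.59 and −0.36 in the others.

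acox-1.2 (194059_at) encodes an acyl-CoA oxidase, a peroxisomal enzyme of the same kind of chain shortening, which in worms also trims the side chains of ascaroside pheromones. Its levels were 7.06, 6.42 and 4.68 on adult mutants 2, 3 and 1, against 8.16, 6.65 and 7.28 on their partners, and 8.17 and 8.35 in larval mutants, against 9.18 and 9.19 in larval wild-type. Again the larval groups were apart, the adult groups overlapped and adult mutant 1 was lowest. In the authors' scaled signals the larval groups overlapped, at 893.7 and 547.2 in the mutant against 1507.7 and 823.9 in wild-type, and pair 4 differed by 0.04. The mean difference was −1.16 ± 0.87 (SD, n = 5 pairs).

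A further pair of named members belongs to the detoxification of foreign and internal lipophilic compounds. cyp-35C1 (189283_s_at), a cytochrome P450 of a worm family that foreign compounds induce, measured 6.58, 6.71 and 5.24 on adult mutants 2, 3 and 1, against 7.0, 6.99 and 7.24 on their partners. Its larval levels were 7.66 and 7.75 in the mutant, against 8.34 and 8.53 in wild-type. The mutant lay below wild-type without overlap at both stages, and the differences averaged −0.83 ± 0.68 (SD, n = 5 pairs), with the largest, −2.0, in pair 5.

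ugt-63 (190744_at) encodes a UDP-glucuronosyltransferase, which joins a sugar acid to such compounds so that they can be excreted. It measured 7.30, 7.34 and 5.93 on adult mutants 2, 3 and 1, against 8.08, 7.55 and 6.19 on their partners, and 5.81 and 5.85 in larval mutants, against 6.94 and 6.94 in larval wild-type. The larval groups were far apart relative to their spread, whereas in adults both arrays of pair 5 were below the other 4. Its mean difference was −0.70 ± 0.44 (SD, n = 5 pairs).

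skpo-2 (190213_s_at) encodes a peroxidase with a ShK toxin-like domain. Its levels were 4.82, 4.58 and 5.90 on adult mutants 2, 3 and 1, against 5.16, 5.04 and 6.46 on their partners, and 6.20 and 7.84 in larval mutants, against 7.09 and 8.66 in larval wild-type. The genotypes overlapped at both stages. skpo-2 was called absent on larval mutant 1 and on every array of adult pairs 3 and 4, so background limits its differences in those pairs, −0.34 and −0.46. C56E6.2 (188849_at), annotated as a GTP-binding protein, showed the steadiest differences of the 6, at −0.49 ± 0.14 (SD, n = 5 pairs). It measured 8.29, 8.82 and 8.34 on adult mutants 2, 3 and 1, against 8.68, 9.16 and 9.03 on their partners, and 7.58 and 8.18 in larval mutants, against 8.11 and 8.68 in larval wild-type, again with overlap at both stages.

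Both named mutant-high members were called present on all 10 arrays. R11F4.1 (189802_s_at), annotated as a glycerol kinase, which phosphorylates the glycerol released from fat, led the mutant-high ranking. It measured 8.24, 7.90 and 9.16 on adult mutants 2, 3 and 1, against 7.89, 7.44 and 8.56 on their partners, and 7.82 and 8.60 in larval mutants, against 7.40 and 7.84 in larval wild-type. The genotypes overlapped at both stages, although only just in larvae, and the differences averaged 0.52 ± 0.16 (SD, n = 5 pairs). F53A9.8 (180612_s_at) measured 8.74, 7.98 and 11.07 on adult mutants 2, 3 and 1, against 8.35, 7.80 and 9.02 on their partners, and 9.68 and 9.67 in larval mutants, against 8.68 and 9.34 in larval wild-type. Adult mutant 1 was the highest of the 10 arrays, and the mean difference was 0.79 ± 0.77 (SD, n = 5 pairs).

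**Figure D3:**
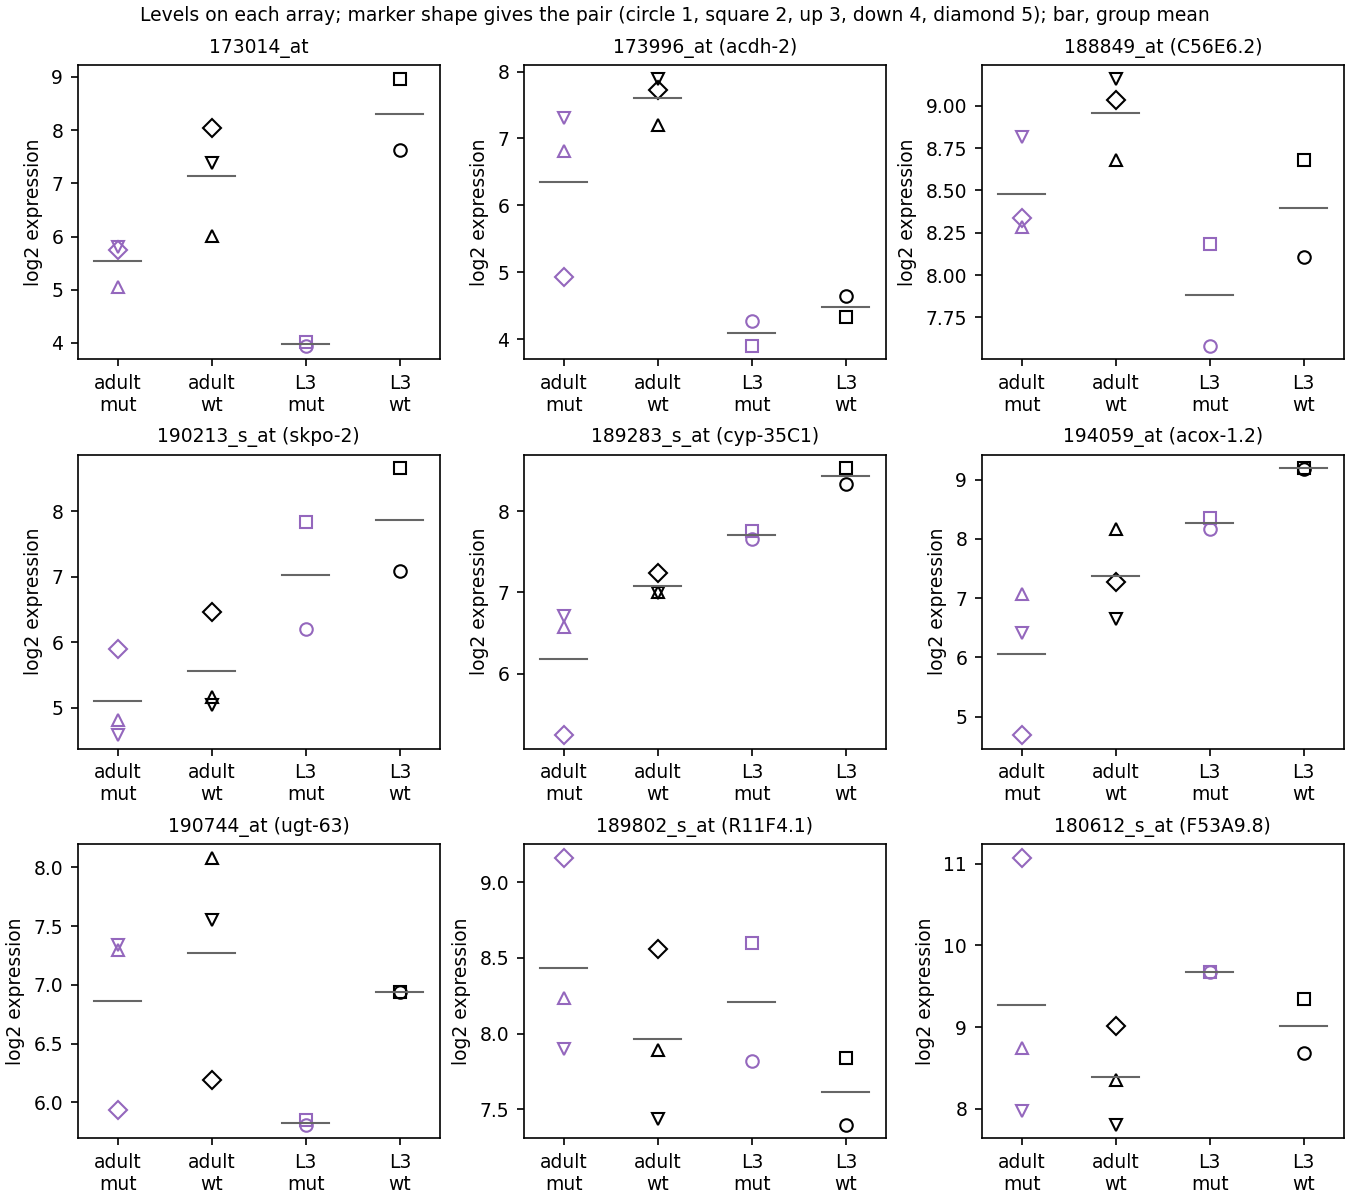
Log2 expression of 173014_at and the 8 members with a gene name on each array, mutant (purple) left of wild-type (black) within adults and larvae, with the group mean as a bar and the pair as the marker shape. Within every pair the purple marker lies on the same side of the black one, while arrays of different pairs often overlap; pair 5, the diamond, has the lowest level of acdh-2, acox-1.2 and cyp-35C1 and the highest of F53A9.8 among adult mutants.

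Other genes of the same families on the authors' lists mostly lacked this steadiness. Of the 3 listed glucuronosyltransferases, 2 were lower in all 5 pairs. The second, ugt-44, was no member because its differences were −0.07, −0.12 and −1.01 in adult pairs 3 to 5, against −1.62 and −1.55 in larval pairs 1 and 2. Of 10 listed lipid genes, 2 were lower in all 5 pairs, which were the members acdh-2 and acox-1.2. None of the 4 glutathione S-transferases, 13 collagens, 6 hedgehog-related probe sets or 8 probe sets of the cuticle and moult kept a single direction in all 5 pairs. Over the 151 named probe sets on the lists, 9 were lower and 5 were higher in all 5 pairs.

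Among members without a name, 180669_s_at, second in the mutant-low ranking, measured 9.05, 8.48 and 7.16 on adult mutants 2, 3 and 1, against 9.67, 8.91 and 8.41 on their partners, and 8.53 and 8.48 in larval mutants, against 8.96 and 9.66 in larval wild-type. 184720_at and 180624_s_at averaged −0.57 ± 0.18 and −1.0 ± 0.68, and the more even 173915_at and 175631_s_at −0.44 ± 0.07 and −0.42 ± 0.05 (SD, n = 5 pairs each). Evenness within pairs did not mean separation of the groups: 175631_s_at ran from 4.39 to 5.67 on adult mutants and from 4.82 to 6.08 on adult wild-type arrays.

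The leading mutant-high members without a name were 175977_s_at at 0.54 ± 0.21, 176009_at at 0.52 ± 0.34, 181652_at at 0.43 ± 0.28, 182339_at at 0.59 ± 0.39, 188119_at at 0.25 ± 0.07 and 185092_at at 0.30 ± 0.14 (SD, n = 5 pairs each). Of these, 182339_at varied most between arrays of the same group, with 7.10, 5.88 and 8.52 on adult mutants 2, 3 and 1, against 6.46, 5.67 and 7.44 on their partners. 176009_at was the only member named in the text by rule whose median difference changed sign in the authors' scaled signals, at −0.14.

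The authors' deposited table of pairwise change calls is made from the same arrays by another algorithm, so it describes the choice and does not support it. It gave a decreased call in at least 3 of the 5 pairs for 14 mutant-low members, against 0.803% of all probe sets, and an increased call in at least 3 for 4 mutant-high members, against 0.878%. In the same deposited table, 15 mutant-low members had a decreased call in none of the 5 pairs and 20 mutant-high members an increased call in none. Over all probe sets of that deposited table, 71.3% had no decreased call and 67.8% no increased call in these pairs. No member had a call against its direction in the 5 pairs. Among all 13 comparisons some members did, such as skpo-2, with 6 decreased and 2 increased calls. The scaled signals kept the sign in all 5 pairs for 18 mutant-low and 17 mutant-high members, against 2.46% of all probe sets lower and 4% higher in all 5. In at least 4 pairs they kept it for 37 and 35, against 15.8% lower and 21.9% higher.

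Level and detection differed between the directions, and neither entered the rule. The mean level over the 10 arrays had a median of 7.13 for mutant-low members (range 4.47 to 11.93) and 5.17 for mutant-high members (range 3.90 to 9.03), against 5.97 for all probe sets. Of the mutant-low members 35 lay above the median of all probe sets, and of the mutant-high members 15. The brightest mutant-low members, 180122_at, 187603_s_at and 187732_at, averaged 11.93, 11.89 and 10.91, and 180122_at ran from 11.33 to 12.10 on mutant arrays and from 11.84 to 12.33 on wild-type arrays. These probe sets were picked for their level after it was seen.

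Present calls followed the same pattern. All 10 arrays called 30 mutant-low members (60%) and 11 mutant-high members (22%) present, against 37.5% of all probe sets. No array did so for 3 (6%) and 18 (36%), against 24.4%. For the 18 mutant-high members absent throughout, the calls place the signal at background in both genotypes. Detection on adult arrays alone was seen for 2 mutant-low and 5 mutant-high members, against 12.1% of all probe sets, and on larval arrays alone for 2 and 0, against 2.96%. By the suffix of their names, probe sets that match several transcripts of a gene or of related genes (_s_at) made up 17 mutant-low members (34%) and 7 mutant-high members (14%), against 24.3% of all probe sets, so related transcripts may share these signals.

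**Figure D4:**
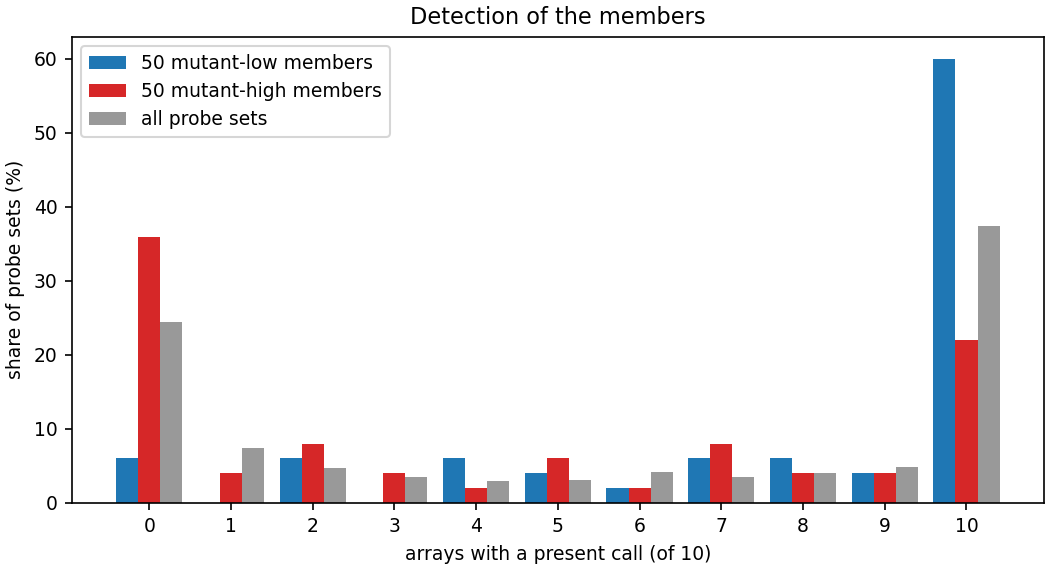
Share of probe sets (%) by the number of arrays, of 10, on which the probe set was called present, for the 50 mutant-low members, the 50 mutant-high members and all probe sets. The mutant-low members pile up at 10 arrays (60%) and the mutant-high members at 0 arrays (36%).

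The stage difference, adult minus larval averaged over the genotypes, is arithmetically separate from the differences that chose the members, but its SE is not. The fit's spread includes the scatter of those differences between pairs. The range of the 5 differences had a median of 0.54 for mutant-low and 0.53 for mutant-high members, against 0.80 for all probe sets. The members' stage calls and adjusted p are therefore a description, not an independent test against the shares of all probe sets. limma called 22 mutant-low members at an adjusted p below 0.05, 11 higher and 11 lower in adults, and 16 mutant-high members, 1 higher and 15 lower. Over all probe sets 19.8% were called higher and 15.9% lower. The median stage difference was 0.32 for mutant-low and −0.34 for mutant-high members, against −0.06 for all probe sets. It was positive for 30 of the 50 mutant-low and 13 of the 50 mutant-high members, against 46.4% of all probe sets. With the pair as a random block, limma called 18 mutant-low members, 11 higher and 7 lower in adults, and 11 mutant-high members, 0 higher and 11 lower, against 14.7% higher and 8.2% lower over all probe sets. The mutant-low members spread widely around 0, from −2.28 to 3.14, and the mutant-high members leaned towards larvae. That lean was not confined to poorly detected probe sets. Among probe sets present on at least 2 arrays in each stage, 23 mutant-high members remained, with 1 called higher and 6 lower. Over all 12129 such probe sets, 3541 were called higher and 1561 lower. In the scaled signals 3 mutant-high members were called lower and 0 higher, against 1702 and 1958 of all probe sets.

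The stage counts were larger without pair 5. Without its arrays, limma called 34 mutant-low members, 22 higher and 12 lower in adults, and 23 mutant-high members, 2 higher and 21 lower, against 24.5% higher and 22.7% lower over all probe sets. Leaving out adult mutant 1 alone gave 33 mutant-low members. That fit called 10409 of all 22548 probe sets, against 8033 with all arrays. On the arrays of pair 5 the mutant-low members lay below the other adult pairs, with a median difference of −0.64 and 14 of 50 higher. The mutant-high members lay above, with a median of 0.21 and 35 of 50 higher. Over all probe sets the median was −0.004, and 49.7% were higher.

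**Figure D5:**
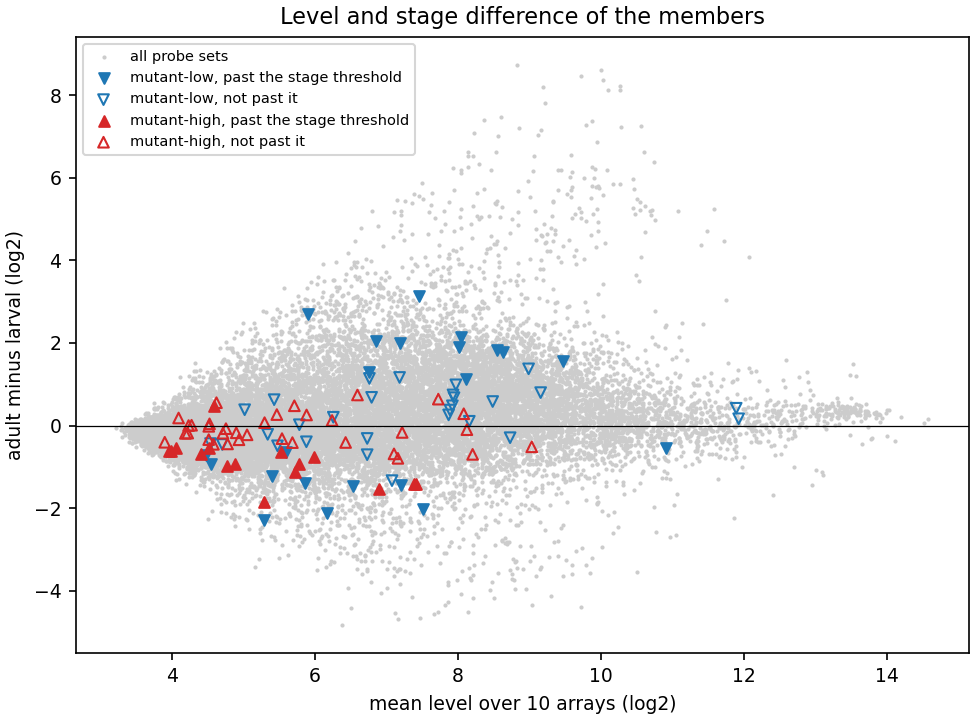
Adult minus larval difference (log2, vertical axis) against mean level over the 10 arrays (log2, horizontal axis) for all probe sets (grey), mutant-low members (blue, pointing down) and mutant-high members (red, pointing up), filled where limma's adjusted p lay below 0.05. Filled red triangles lie below 0 with 1 exception, whereas filled blue ones divide into 11 above and 11 below.

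The mutant-low members with the largest gains in adults were 185302_s_at, acdh-2 and 180247_s_at. 185302_s_at measured 8.81, 9.14 and 7.65 on adult mutants 2, 3 and 1 and 8.98, 9.33 and 8.39 on adult wild-type arrays, against 5.33 and 5.54 in larval mutants and 5.61 and 5.82 in larval wild-type. Adults exceeded larvae on every array, and the stage difference was 3.14 ± 0.31 (SE), with limma adjusted p = 0.00023. acdh-2 followed at 2.69 ± 0.43 (SE; limma adjusted p = 0.00201) and 180247_s_at at 2.14 ± 0.18 (SE; limma adjusted p = 0.000124). These fits leave out the pair. With the pair as a random block, the SEs were 0.34, 0.61 and 0.21 for 185302_s_at, acdh-2 and 180247_s_at. The limma adjusted p of that fit were 0.000481, 0.0135 and 0.000309, in the same order.

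The largest losses in adults among mutant-low members were those of 176857_s_at, skpo-2 and acox-1.2. 176857_s_at measured 3.99, 3.93 and 4.86 on adult mutants 2, 3 and 1 and 4.2, 4.27 and 5.05 on adult wild-type arrays, against 5.77 and 6.74 in larval mutants and 6.43 and 7.71 in larval wild-type. Adults lay below larvae on every array, by −2.28 ± 0.35 (SE; limma adjusted p = 0.00173). 176857_s_at was called absent on every adult array and present on 2 larval arrays, so background limits this size and its adult mutant minus wild-type differences. skpo-2 differed by −2.12 ± 0.50 (SE; limma adjusted p = 0.0116), acox-1.2 by −2.01 ± 0.46 (SE; limma adjusted p = 0.0109) and cyp-35C1 by −1.44 ± 0.28 (SE; limma adjusted p = 0.00518). Background limits the size for skpo-2 too, which was called present on only 2 adult arrays. With the pair as a random block, limma adjusted p = 0.00301 for 176857_s_at and 0.0159 for skpo-2. For acox-1.2 that fit gave an SE of 0.60 and limma adjusted p = 0.0418, and for cyp-35C1 an SE of 0.42 and limma adjusted p = 0.0388. The other named mutant-low members did not pass, with 0.68 ± 0.41 (SE) for ugt-63 and 0.58 ± 0.21 (SE) for C56E6.2, and limma adjusted p = 0.221 and adjusted p = 0.0577. Without pair 5 ugt-63 passed, at 1.18 (limma adjusted p = 0.000916), and C56E6.2 did not (limma adjusted p = 0.0762).

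Among mutant-high members the largest losses in adults were those of 182884_at, 175977_s_at and 191333_at. 182884_at measured 4.52, 4.47 and 5.11 on adult mutants 2, 3 and 1 and 4.28, 4.33 and 4.63 on adult wild-type arrays, against 6.94 and 6.83 in larval mutants and 6.65 and 5.17 in larval wild-type. The low value of larval wild-type 2 made a pair difference of 1.66, the largest of its 5. Its stage difference was −1.84 ± 0.29 (SE; limma adjusted p = 0.00181), beside −1.53 ± 0.42 (SE; limma adjusted p = 0.0232) for 175977_s_at and −1.41 ± 0.45 (SE; limma adjusted p = 0.0397) for 191333_at. The sole mutant-high member higher in adults, 184004_s_at, differed by 0.48 ± 0.13 (SE; limma adjusted p = 0.0202), at 5.15, 4.86 and 5.16 on adult mutants 2, 3 and 1 and 4.62, 4.54 and 4.38 on adult wild-type arrays, against 4.36 and 4.50 in larval mutants and 4.22 and 4.13 in larval wild-type. With the pair as a random block, limma adjusted p = 0.0901 for 184004_s_at and adjusted p = 0.0922 for 191333_at, so both calls were lost, whereas 182884_at and 175977_s_at passed. R11F4.1 and F53A9.8 did not pass, at 0.29 ± 0.32 and −0.51 ± 0.56 (SE), with limma adjusted p = 0.515 and adjusted p = 0.497. Without pair 5 F53A9.8 passed, at −1.12 (limma adjusted p = 0.00844), and R11F4.1 stood at −0.05 (limma adjusted p = 0.883).

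The size of the mutant minus wild-type difference showed no shared stage pattern. Its mean over the adult pairs had a median of −0.44 for mutant-low members, beside −0.39 over the larval pairs, and of 0.32 and 0.33 for mutant-high members. The larval mean was the larger in size for 22 of 50 in each direction, against 51.1% of all probe sets. For the difference between adult and larval genotype effects limma called 0 of 22548 probe sets, with 519 at an unadjusted p under 0.05, and 0 under each alternative fit, with 91 to 1124.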

How the data were processed

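The authors deposited log2 expression values made with RMA, per the submitters' processing notes, and separate tables of scaled signal values (target 300 per the file headers) with present and change calls. Probe set annotation beyond the authors' lists and probe sequences were not used here, and 48 columns of per-sample values were left out. The members and gene lists were chosen with earlier results of these data known. Pairs came from the descriptions: deviations from group means correlated at 0.561 to 0.647 within them, and at −0.652 to −0.222 for adult arrays sharing a title number. Such deviations sum to 0 within a group. Positive values within the described pairs therefore pull the other adult pairings down on average, and the negative values are no separate support. Gene names come from the gene numbers on the authors' lists, looked up in a RefSeq table (WBcel235). Differences, ranks, limits and the 32 sign assignments were computed in Python 3.11.15. Stage (group means of 10 arrays, no block), genotype and interaction (pair as block) were fitted on 22548 probe sets in R 4.3.3 with limma 3.58.1 and Benjamini-Hochberg adjustment at 0.05, after tests on simulated data. Scaled signals were used as log2 of the signal plus 16. The text names the 8 leading members per direction, the 2 on each side of a limit, the 3 largest stage gains and losses past the threshold, and members on the authors' lists. Of the tissue markers, only rol-6 is named on those lists, so tissue content could not be checked. The number of arrays limits the precision, and the labels call replicates biological.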

Additional observations from a re-analysis of the deposited data

How the results depend on the processing

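Few arrays, background signal in absent probe sets and a choice made on the same values limit these results, and the cause of each shift below was not tested unless the setting itself gives it. The count of lower probe sets (1017) became 555 with scaled signals, 419 with pairs by title number and 41 over all 13 comparisons. That of higher ones (349) became 901, 199 and 30, and 537 with quantile normalisation. It became 139 with a filter on present calls, which kept 12129 probe sets. Scaled signals, title pairs and the 13 comparisons kept the sign of 18, 15 and 5 mutant-low and 17, 13 and 9 mutant-high members. The rule chose 26 mutant-low and 20 mutant-high members again after quantile normalisation, 32 and 26 after centring, and 4 and 5 with scaled signals. It chose 10 and 10 again with title pairs, and 5 and 11 over the 13 comparisons. The present filter kept 41 mutant-low and 23 mutant-high members. All of these were chosen again, which was fixed in advance because a filter only removes competitors. Leaving out each pair in turn asks for 4 pairs only. That all 50 members in each direction kept their sign was therefore fixed in advance, as were counts no smaller than with 5 pairs. These fits gave 1572 to 2172 lower and 652 to 1194 higher probe sets. The rule then chose 13 to 26 mutant-low and 6 to 14 mutant-high members again. Stage calls (8033, with 22 mutant-low and 16 mutant-high members) became 3660, 13 and 3 with scaled signals and 4202, 14 and 2 in wild-type arrays alone. They became 1136, 4 and 2 in mutant arrays alone. The present filter gave 5102 calls among 12129 probe sets, and 7 among the 23 mutant-high members it kept. The pair as a random block (correlation 0.528) gave 5169 calls, and the fit without pair 5 gave 10639, with 34 mutant-low members. Leaving out each array gave 5358 to 10409 calls, 17 to 33 mutant-low and 11 to 20 mutant-high members. Title numbers do not pair the adult arrays; as a replicate block they gave 6271, 19 and 12 stage calls and changed no other call. Genotype and interaction calls stayed at 0 in every fit run. The median difference of 176009_at was −0.136 with scaled signals.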
